A study of Mus musculus with 24 samples.

Results

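The genes of the splicing machinery were followed across mouse peritoneal metastasis samples from groups given propionate, butyrate or both acids and from a control group. Of 56422 gene names in the deposited table, 73 were taken by name alone: those that start with Sf3a, Sf3b, Snrp, Snrnp, Prpf, Srsf or Hnrnp and are not marked as pseudogenes. They comprised 3 Sf3a, 6 Sf3b, 13 Snrp, 7 Snrnp, 13 Prpf, 11 Srsf and 20 Hnrnp genes. A filter of at least 1 TPM (transcript abundance, corrected for length and set to the same sum in each library) in at least 6 libraries left 71 for testing. Snrpert was listed at 0 in all 24 libraries and Srsf12 reached at most 0.46 TPM.

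There were 6 libraries in each of 4 groups, called propionate, butyrate, combination (both acids) and control. Both acids are short-chain fatty acids released by gut bacteria from fibre, and butyrate has the longer carbon chain. The series title places the samples in work on mannose, a gut microbial metabolite and anti-PD-1 therapy of ovarian cancer. The sources used here do not give strain, age, tumour line, dose, timing or any antibody treatment of these groups. Nor do they say whether each sample came from its own mouse, so the p-values speak for the spread among these samples alone, and that spread may be technical.

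Splicing removes introns from pre-mRNA in a large complex of small nuclear ribonucleoproteins, the snRNPs, each built on its own small RNA. U1 recognises the 5′ splice site, and U2, with its SF3A and SF3B subcomplexes, settles on the branch point. The U4/U6.U5 tri-snRNP then joins to form the catalytic centre. A ring of Sm proteins holds all of these RNAs except U6, and a minor spliceosome with U11 and U12 serves a rare class of introns. SR proteins and hnRNPs bind the pre-mRNA itself and influence which sites are used, SR proteins often as activators and hnRNPs often as repressors. Most of these genes are active in nearly every cell of a tissue.

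Promoter sequences are shown for 3 genes named in the results below. Sf3a2 is a U2 gene whose butyrate libraries lay wholly below control, as did those of 1.83% of all genes. Snrnp27 and Snrpn were the pair above control in propionate and butyrate, where all other tested members were below (79.3 and 78.8% of all genes). Each sequence is the RefSeq promoter window of 300 bases around a gene start, printed 5′ to 3′ on the strand of the gene. The mouse build is GRCm38.p6, an older build than that of the deposited table. Capitals mark CCGGAAG, the core of an ETS factor motif, searched on both strands.
Sf3a2 (chr10:80798485-80798784, plus strand): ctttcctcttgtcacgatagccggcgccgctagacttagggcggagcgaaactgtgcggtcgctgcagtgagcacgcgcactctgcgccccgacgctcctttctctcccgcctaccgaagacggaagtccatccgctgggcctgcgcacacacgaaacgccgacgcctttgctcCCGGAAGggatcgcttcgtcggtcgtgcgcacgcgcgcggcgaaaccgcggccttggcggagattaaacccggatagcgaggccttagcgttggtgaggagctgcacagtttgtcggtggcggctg
Snrnp27 (chr6:86684442-86684741, minus strand): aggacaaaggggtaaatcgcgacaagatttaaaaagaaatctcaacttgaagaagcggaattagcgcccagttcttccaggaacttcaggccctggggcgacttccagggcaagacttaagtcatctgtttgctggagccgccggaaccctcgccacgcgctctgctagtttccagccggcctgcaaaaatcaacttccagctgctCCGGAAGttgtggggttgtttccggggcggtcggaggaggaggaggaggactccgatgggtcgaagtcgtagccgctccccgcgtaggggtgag
Snrpn (chr7:60005150-60005449, minus strand): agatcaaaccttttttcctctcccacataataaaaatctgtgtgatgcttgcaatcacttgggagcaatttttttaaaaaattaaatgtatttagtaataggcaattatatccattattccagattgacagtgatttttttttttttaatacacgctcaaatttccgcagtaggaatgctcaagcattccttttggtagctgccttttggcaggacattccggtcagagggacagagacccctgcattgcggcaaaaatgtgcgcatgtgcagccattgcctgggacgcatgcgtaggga
The Sf3a2 window held 41 CpG dinucleotides and 1 motif match, the Snrnp27 window 21 CpG dinucleotides and 1 match, and this Snrpn window, 1 of 4 listed for the gene, 7 CpG dinucleotides and no match.

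Of the 73 genes, 63 matched RefSeq entries with 83 windows, against 32851 windows in the whole table. CCGGAAG on either strand occurred in 27 member windows, 32.5%, against 8.86% of all windows. CCAAT on either strand was found in 44.6% of member windows, against 37.4% of all windows, and TATAAA in 9.64%, against 13.6%. The median window held 24 CpG dinucleotides for members, against 7 for all genes. A match describes these letters only, and windows of a gene with several starts are not independent.

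Together, the 73 genes took between 0.276 and 0.803% of the TPM of a library. Their summed level had its lowest, median and highest values at 2764, 3517 and 7619 TPM in propionate, 2953, 3568 and 5424 TPM in butyrate, 3348, 4971 and 6898 TPM in combination, and 3483, 5904 and 8032 TPM in control. All groups overlapped. Propionate split, with replicates 3 and 4 at 7619 and 6601 TPM and the other 4 libraries between 2764 and 3951 TPM. Control replicate 3, at 3483 TPM, lay among the low propionate and butyrate libraries.

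**Figure D1:**
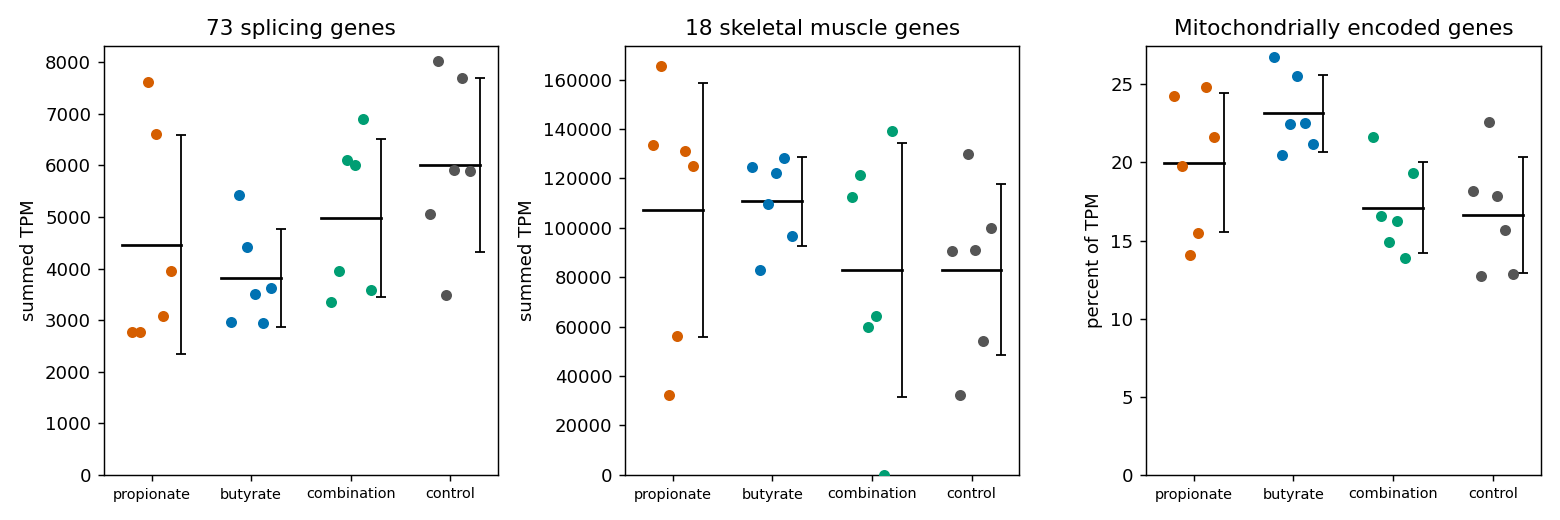
Summed TPM of the 73 splicing genes (left), summed TPM of 18 skeletal muscle genes (middle) and percent of TPM in mitochondrially encoded genes (right) in propionate, butyrate, combination and control. Points are libraries, lines are means and bars are SD (n = 6 per group), and the splicing sum averages 4466 TPM in propionate, 3815 TPM in butyrate, 4980 TPM in combination and 6014 TPM in control.

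The sampled pieces differed in their makeup, and the splicing level moved with it: libraries with more muscle and mitochondrial RNA tended to have lower splicing sums. Mitochondrially encoded genes and the skeletal muscle list together took 17.3 to 37.9% of the TPM in propionate, 28.8 to 39.2% in butyrate, 13.9 to 33.3% in combination and 16.0 to 35.5% in control. The 2 propionate libraries with high splicing sums were at 17.3 and 21.1%, while the other 4 lay between 34.1 and 37.9%. Control replicate 3, the lowest control library by splicing sum, was at 35.5%, and control replicate 2 at 16.0%. As a share of the TPM outside those genes, the splicing genes had medians of 0.548% in propionate, 0.544% in butyrate, 0.663% in combination and 0.787% in control, again with overlapping ranges. In bulk tissue, fewer cells of a type and less RNA per cell cannot be told apart.

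**Figure D2:**
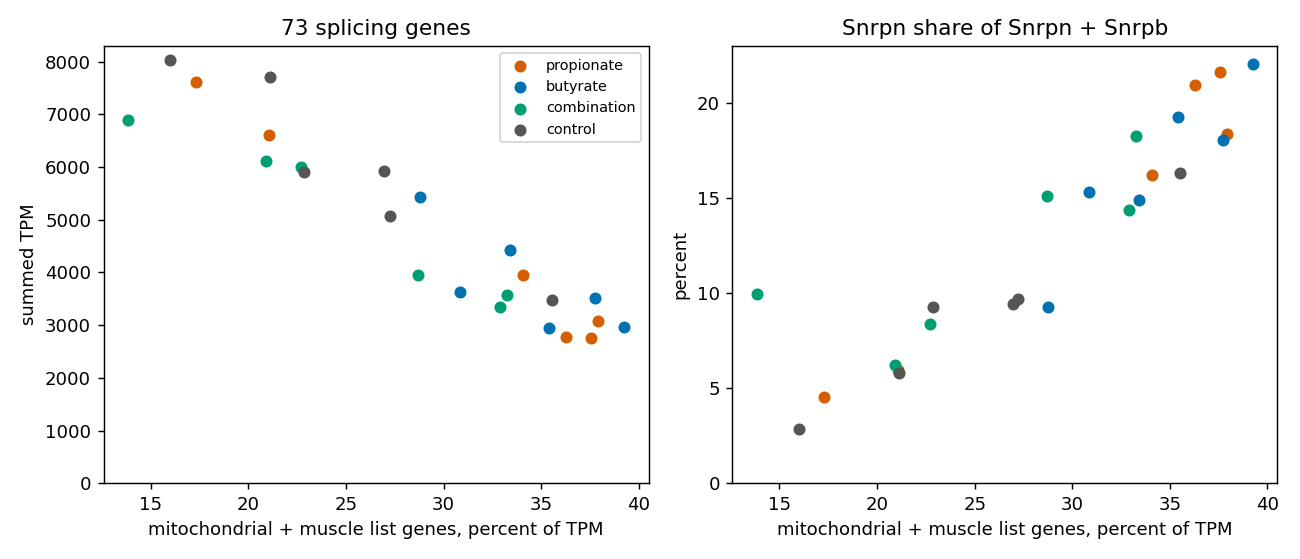
Summed TPM of the 73 splicing genes (left) and percent of the Snrpn plus Snrpb sum that is Snrpn (right), each plotted for the 24 libraries against the percent of TPM in mitochondrially encoded and skeletal muscle genes. Propionate replicates 3 and 4, at 17.3 and 21.1% on the horizontal axis, sit apart from the other propionate libraries, and control replicate 3 sits with them at 35.5%.

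Markers of other cell types also varied. No muscle, mesothelium, adipocyte, T cell, B cell, myeloid or cell cycle marker was at 0 throughout a group. The cell cycle list summed to 35.0 to 566 TPM in propionate, 38.7 to 255 TPM in butyrate, 62.6 to 371 TPM in combination and 55.9 to 783 TPM in control. The mesothelium list summed to 28.1 to 952 TPM in propionate, 13.7 to 413 TPM in butyrate, 21.0 to 683 TPM in combination and 16.7 to 1169 TPM in control. The epithelial carcinoma list ran over 3.91 to 438 TPM, 1.41 to 198 TPM, 6.17 to 515 TPM and 1.92 to 515 TPM in the same groups. Among control libraries, replicate 2 was highest and replicate 3 lowest on both lists. Which cells carried the mesothelium list was not tested. Combination replicate 5 stood apart. Its muscle list summed to 70.8 TPM, and Wt1, a gene of the mesothelium list, was listed at 0. Its whole mesothelium list summed to 367 TPM, inside the range of the other combination libraries. Its T and B cell lists summed to 993 and 835 TPM. Its adipocyte list summed to 17575 TPM, against 6666 TPM in combination replicate 2, the next highest library. It also held the highest epithelial carcinoma sum of its group, 515 TPM. What part these differences play in the splicing values was not tested, beyond the fits with muscle and mesothelium levels as covariates given below.

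Among the members, Hnrnpa2b1 had the highest mean over all libraries at 537 TPM, followed by Srsf5 and Hnrnpa1 at 221 TPM each, while Snrnp48, Prpf4 and Sf3b5 were lowest among tested genes at 9.88, 6.81 and 5.49 TPM. TPM is scaled by transcript length, so these levels may be set beside each other. Steadiness differed as well. The ratio of the highest to the lowest library was 1.48 for Prpf18 and for Snrnp35 and 1.64 for Snrnp27, against 7.23 for Hnrnpa1, 7.30 for Hnrnpf and 7.57 for Srsf9, with a median of 3.57 over the tested members.

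In the fit of all 24 libraries without weights or a replicate block, no member passed the test in any comparison with control, at a Benjamini-Hochberg adjusted p under 0.05 from limma over 15163 genes. In butyrate against control, 0 of 71 members were called, as were 0.0% of all genes, and the smallest member adjusted p was 0.115. At an unadjusted p under 0.05, 43 members were lower and 0 higher in butyrate, which is 60.6% of members, against 35.1% of all genes lower and 1.19% higher. Fold changes below 0 were found for 69 members (background 78.8%), with a median log2 fold change of -0.59, against -0.38 over all genes. The groups did not overlap, with butyrate lower, for 2 members, Sf3a2 and Snrnp25, and for 1.83% of all genes.

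Because the bulk of all genes stood lower in butyrate, scaling mattered. Under median-of-ratios scaling the all-gene median in butyrate was 0.01 in place of -0.38, the member median was -0.13 in place of -0.59, 19 members stood above 0, and 21 members were lower and 3 higher (Hnrnpdl, Snrnp27 and Srsf5) at an unadjusted p under 0.05, against a background of 14.1% lower and 9.79% higher. The member median was thus below the all-gene median on both scales, with 56 members below it in TPM and 53 after median-of-ratios scaling. With muscle and mesothelium levels as covariates the member median in butyrate was -0.21, against -0.13 for all genes. In the same fit the member medians were -0.13 in propionate and -0.06 in combination, against -0.09 and -0.01 over all genes. Single libraries also moved the count of 43: it was 25 without control replicate 2 (background 18.5%), 26 without control replicate 5 (20.4%) and 27 without butyrate replicate 1 (20.4%). Without control replicate 3, 43 members were lower after adjustment, against 36.2% of all genes.

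In propionate against control, 0 of 71 members were called (0.0% of all genes) and the smallest member adjusted p was 0.333. Fold changes were below 0 for 69 members (background 79.3%), with a median of -0.42 against -0.30 over all genes. At an unadjusted p under 0.05, 8 members were lower and 0 higher, 11.3% of members against 9.13% of all genes lower and 0.435% higher. These were Sf3b3, Sf3b4, Sf3a1, Srsf2, Srsf3, Srsf7, Snrpa and Snrpc. That count rested on which libraries entered: it was 48 without propionate replicate 3 (background 40.7%), 41 without propionate replicate 4 (31.2%) or control replicate 3 (35.2%), and 0 without propionate replicate 1 (1.5%), propionate replicate 5 (1.71%), control replicate 2 (2.25%) or control replicate 5 (2.0%). It was 2 without propionate replicate 2 (2.78%), propionate replicate 6 (3.28%) or control replicate 6 (2.9%). No member had propionate libraries wholly apart from control, against 0.0264% of all genes wholly lower. Median-of-ratios scaling gave a member median of -0.05, with 7 members lower and 0 higher at that threshold (background 5.14% and 3.38%).

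Combination against control likewise gave 0 called members (0.0% of all genes), with a smallest member adjusted p of 0.407. Fold changes were below 0 for 65 members (background 65.9%), and the median was -0.25 against -0.12 over all genes. Only Prpf19 was lower at an unadjusted p under 0.05, 1.41% of members against 4.1% of all genes, and 0 members were higher against 6.2%. Without combination replicate 5, 3 members were lower (Hnrnph3, Snrnp70 and Srsf11; background 4.54%) and the median was -0.35. Without control replicate 3 there were 5 (14.3%): Prpf19, Prpf40b, Snrpa, Snrpc and Snrpd2. There were 0 without combination replicate 1 (2.1%) or control replicate 2 (2.37%), 5 (1.83%) or 6 (2.18%). No member was wholly lower than control (background 0.112%), and median-of-ratios scaling gave a median of -0.13 with 4 members lower (Hnrnph1, Hnrnpu, Snrnp70 and Srsf2) and 0 higher (7.0% and 9.76%). The 3 comparisons share the control libraries, so their directions are not independent of each other.

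The calls depended on how much each library counted. With limma weights per library, which gave propionate replicates 3 and 4, combination replicate 5 and control replicate 3 between 0.126 and 0.260 against up to 6.76 for propionate replicate 5, 64 members were called in propionate against control (75.4% of all genes), 63 of them lower (66.0%). In butyrate 64 were called (67.6% of all genes), again 63 lower (61.3%), and in combination 45 (38.2%), with 44 lower (31.4%). The 1 member called higher was Snrpn in each of the 3 comparisons. Member medians with these weights were -0.85 in propionate, -0.75 in butyrate and -0.51 in combination, against -0.58, -0.50 and -0.25 over all genes. The same weights called 31 members higher in combination against propionate (33.1%) and Snrnp25, Snrpb and Snrpc higher in combination against butyrate (3.77%). The interaction described below then had 65 called members (72.4% of all genes), of which Snrpn was the 1 lower (5.82%).

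**Figure D3:**
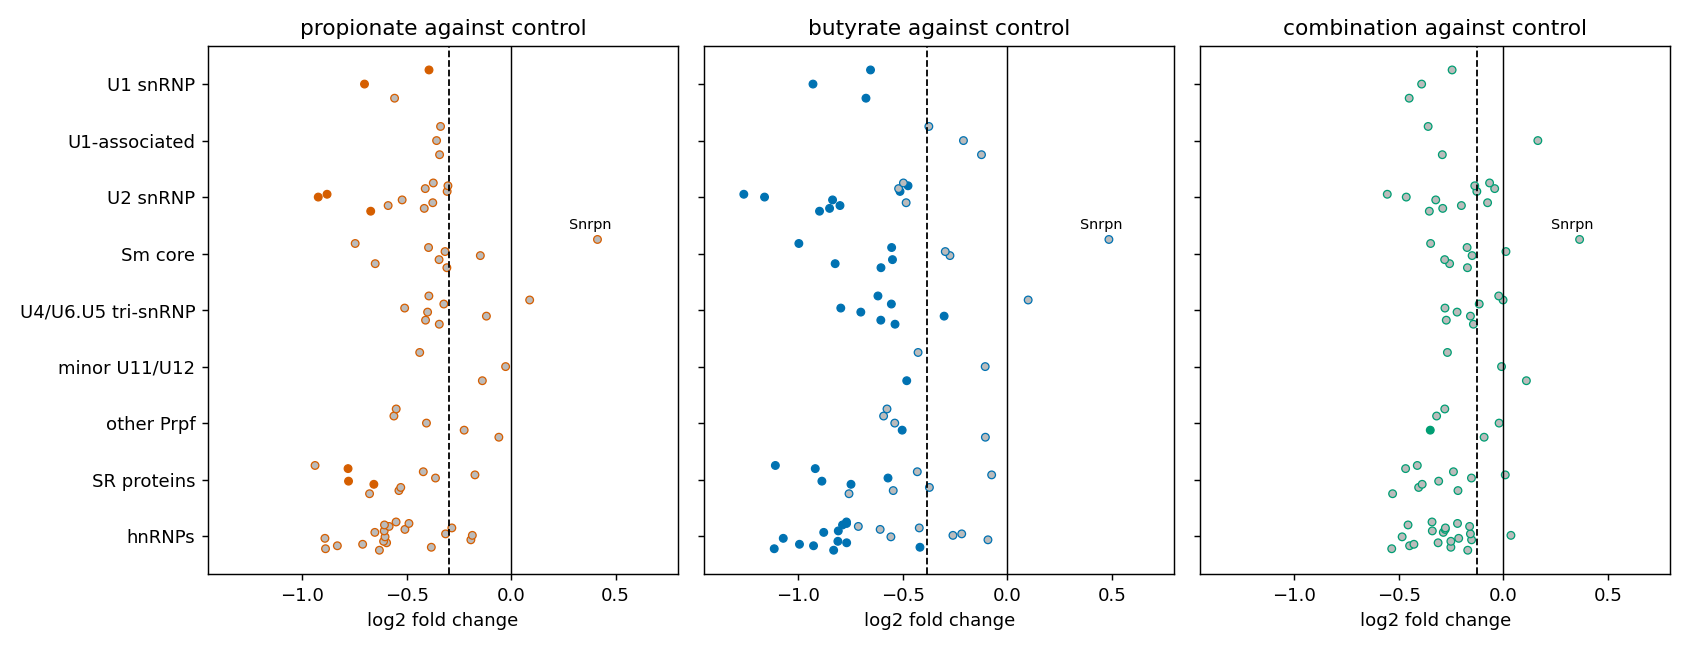
Log2 fold change of each tested member, grouped by role, for propionate, butyrate and combination against control. Filled points have an unadjusted p under 0.05, the dashed line is the median of all 15163 genes, and the butyrate medians of the U1-associated and minor spliceosome groups change sign under median-of-ratios scaling.

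The 3 proteins particular to the U1 snRNP, Snrnp70, Snrpa and Snrpc, were all below control in every treated group. Their median log2 fold changes were -0.56 in propionate, -0.68 in butyrate and -0.39 in combination. Of all genes, 79.3, 78.8 and 65.9% were below control in the same order. Snrpc, the U1-C protein that steadies pairing of U1 with the 5′ splice site, had 64.7, 78.5 and 128 TPM as lowest, median and highest in propionate, 60.3, 68.7 and 86.8 TPM in butyrate, 78.1, 91.8 and 114 TPM in combination, and 75.5, 116 and 145 TPM in control. Only butyrate came near to separating from control, with a butyrate library higher in 2 of 36 pairs. Its log2 fold change was -0.39 ± 0.18 (SE) in propionate, -0.65 ± 0.18 in butyrate and -0.24 ± 0.18 in combination. Snrnp70, the U1-70K protein that binds the U1 RNA directly, was at -0.56 ± 0.28, -0.68 ± 0.28 and -0.45 ± 0.28 in the same order. After median-of-ratios scaling the U1 medians were -0.19, -0.21 and -0.27, with 1 of 3 lower at an unadjusted p under 0.05 in butyrate (14.1% of all genes).

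The U2 group lay below control in TPM throughout. All 11 genes were below control in propionate (79.3% of all genes), butyrate (78.8%) and combination (65.9%). Under median-of-ratios scaling 9 of 11 were below in propionate, 11 of 11 in butyrate and 8 of 11 in combination. The share of all genes below control under that scaling was not counted. In butyrate the median was -0.80 and 8 of 11 were lower at an unadjusted p under 0.05, with 6 of 11 and -0.35 after median-of-ratios scaling, against 35.1% and 14.1% of all genes. In propionate 3 of 11 were lower (9.13% of all genes) and the median was -0.42, and in combination 0 of 11 (4.1%) with a median of -0.20.

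Sf3a2, the SF3A subunit that contacts the branch point region, did not overlap between butyrate and control (1.83% of all genes wholly lower). Its lowest, median and highest values were 13.4, 21.5 and 31.2 TPM in propionate, 13.7, 14.4 and 17.5 TPM in butyrate, 16.7, 22.4 and 33.6 TPM in combination, and 22.1, 27.6 and 36.0 TPM in control. Only butyrate lay wholly below the control libraries, while propionate and combination overlapped with control. The log2 fold change was -0.85 ± 0.20 in butyrate, -0.42 ± 0.20 in propionate and -0.29 ± 0.20 in combination. In butyrate it was -0.40 after median-of-ratios scaling and -0.37 after quantile scaling, and leaving out any 1 library kept it between -0.92 and -0.78. Without combination replicate 5 the combination value was -0.40.

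Sf3b4, an SF3B subunit that binds pre-mRNA near the branch site, was further below control but spread more widely. It had 5.45, 8.60 and 32.2 TPM as lowest, median and highest in propionate, 5.49, 8.24 and 13.3 TPM in butyrate, 8.44, 16.6 and 22.5 TPM in combination, and 8.64, 24.9 and 37.1 TPM in control. Groups overlapped, since the lowest control library fell inside the butyrate range and the highest propionate library inside the control range. Its log2 fold change was -0.88 ± 0.41 in propionate, -1.26 ± 0.41 in butyrate and -0.56 ± 0.41 in combination. Sf3b3, a scaffold subunit of SF3B, was at -0.92 ± 0.41, -1.16 ± 0.41 and -0.46 ± 0.41 in the same order, and Sf3a1, which bridges SF3A to the U2 RNA, at -0.67 ± 0.30, -0.90 ± 0.30 and -0.35 ± 0.30. Sf3b1, the large subunit that clasps the branch helix, was nearer to control, with medians of 37.2 TPM in propionate, 32.6 TPM in butyrate, 43.7 TPM in combination and 52.4 TPM in control. Its combination value of -0.08 ± 0.28 depended on replicate 5, which held 121 TPM, and was -0.34 without it; it was 0.04 under median-of-ratios scaling.

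**Figure D4:**
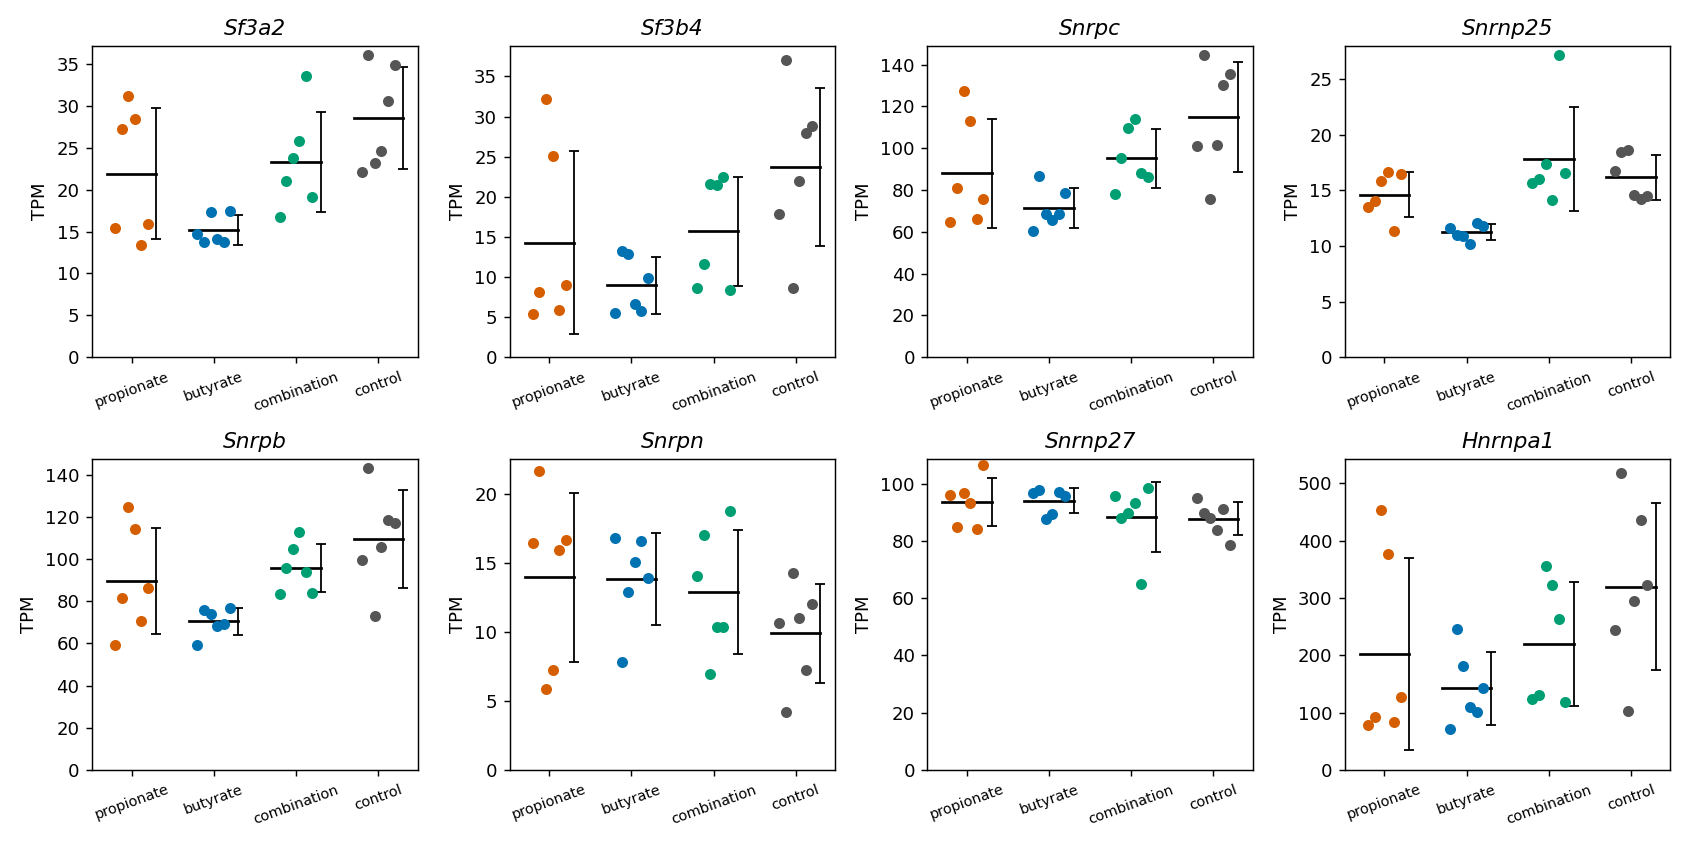
TPM of Sf3a2, Sf3b4, Snrpc, Snrnp25, Snrpb, Snrpn, Snrnp27 and Hnrnpa1 in each library of propionate, butyrate, combination and control, with lines for means and bars for SD (n = 6 per group). In TPM, butyrate lies wholly below control for Sf3a2 and Snrnp25 (1.83% of all genes), though the Snrnp25 difference is near 0 after rescaling. The means of Snrpn are above control in each treated group.

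Among the 8 Sm ring genes, Snrpb and Snrpn are paralogs with fold changes of opposite sign in TPM. Snrpb encodes the SmB proteins of most cells, and Snrpn, an imprinted gene expressed from the paternal copy and best known from brain and heart, encodes the closely related SmN. Snrpb had 59.5, 84.1 and 125 TPM as lowest, median and highest in propionate, 59.4, 71.6 and 76.7 TPM in butyrate, 83.6, 94.8 and 113 TPM in combination, and 73.2, 112 and 143 TPM in control. Butyrate and control overlapped by a narrow margin, with butyrate higher in 3 of 36 pairs. The log2 fold change was -0.60 ± 0.17 in butyrate, -0.31 ± 0.17 in propionate and -0.17 ± 0.17 in combination, but under median-of-ratios scaling these became -0.13 in butyrate and 0.07 in propionate.

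Snrpn ran the other way in the group values. It had 5.89, 16.2 and 21.7 TPM as lowest, median and highest in propionate, 7.78, 14.5 and 16.8 TPM in butyrate, 6.93, 12.2 and 18.8 TPM in combination, and 4.22, 10.8 and 14.3 TPM in control. All treated groups overlapped with control, and the log2 fold changes of 0.41 ± 0.31 in propionate, 0.49 ± 0.31 in butyrate and 0.37 ± 0.31 in combination did not pass. Their sign held under median-of-ratios scaling, at 0.76, 0.91 and 0.47. As a share of Snrpn plus Snrpb, Snrpn had medians of 17.3% in propionate, 16.7% in butyrate, 12.2% in combination and 9.36% in control. The lowest and highest shares came from libraries of different makeup: the share was 2.86% in control replicate 2 and 4.52% in propionate replicate 3, libraries with 16.0 and 17.3% of mitochondrial and muscle TPM, and 22.0% in butyrate replicate 1, with 39.2%. Reads shared between such close paralogs could be split unevenly, and the ratio of these genes is a measure within a library that scaling leaves as it is.

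Of the other Sm genes, Snrpd2, which pairs with Snrpd1 in the ring, had medians of 39.5 TPM in propionate, 37.0 TPM in butyrate, 43.6 TPM in combination and 56.1 TPM in control, with overlapping ranges. The Sm median in butyrate was -0.55 with 5 of 8 lower at an unadjusted p under 0.05 (35.1% of all genes), and -0.09 with 0 of 8 after median-of-ratios scaling (14.1%). In propionate the Sm median of -0.33 became 0.04 under that scaling, and in combination it was -0.17.

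In the tri-snRNP group of 8, butyrate had a median of -0.58 and 7 genes lower at an unadjusted p under 0.05 (35.1% of all genes). Median-of-ratios scaling left 2 lower (14.1%) and 1 higher (9.79%), with a median of -0.13. Prpf8, the U5 protein at the heart of the catalytic centre, had 18.4, 24.8 and 52.3 TPM as lowest, median and highest in propionate, 15.6, 21.5 and 32.2 TPM in butyrate, 19.7, 33.4 and 57.0 TPM in combination, and 22.9, 43.8 and 54.2 TPM in control. The ranges overlapped in each comparison. Its log2 fold change was -0.51 ± 0.28, -0.80 ± 0.28 and -0.28 ± 0.28 in propionate, butyrate and combination. Prpf6, which bridges U5 to U4/U6, was at -0.70 ± 0.24 in butyrate, and Snrnp40, a U5 protein, at -0.62 ± 0.25.

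Snrnp27, the tri-snRNP 27K protein, was the exception in this group. It had 84.0, 94.5 and 107 TPM as lowest, median and highest in propionate, 87.6, 96.2 and 97.7 TPM in butyrate, 64.8, 91.4 and 98.4 TPM in combination, and 78.6, 88.9 and 95.1 TPM in control. The groups overlapped and the log2 fold changes of 0.09 ± 0.10 in propionate and 0.10 ± 0.10 in butyrate were as small as their errors. Against the lower bulk of other genes this near constancy gave 0.57 in butyrate under median-of-ratios scaling, one of the 3 members above control there at an unadjusted p under 0.05. In combination, replicate 5 was the one low library.

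Of the 3 members that belong to the U11/U12 particle of the minor spliceosome, Snrnp25 had 11.4, 14.9 and 16.6 TPM as lowest, median and highest in propionate, 10.2, 11.3 and 12.1 TPM in butyrate, 14.1, 16.3 and 27.1 TPM in combination, and 14.2, 15.6 and 18.6 TPM in control. Its leading transcript made up 40.3 to 50.0% of its TPM, and 50.0% in most libraries. Whether 2 rows of equal value were summed under its name, which would double these levels, was not tested. Butyrate lay wholly below control (1.83% of all genes) and wholly below combination (0.686%), with a log2 fold change of -0.48 ± 0.13 against control. That separation was tied to scaling, since the value was -0.04 after median-of-ratios and 0.03 after quantile scaling. Snrnp35 stayed between 14.6 and 21.6 TPM in all libraries, and its medians were 18.0 TPM in propionate, 17.8 TPM in butyrate, 19.2 TPM in combination and 19.0 TPM in control.

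Of the remaining Prpf proteins, Prpf19, the ubiquitin ligase at the core of a complex that accompanies spliceosome activation, had 74.8, 86.7 and 117 TPM as lowest, median and highest in propionate, 67.7, 74.2 and 83.6 TPM in butyrate, 61.0, 87.8 and 98.5 TPM in combination, and 77.4, 112.5 and 126 TPM in control. A butyrate library was higher than a control library in 1 of 36 pairs, and the log2 fold change was -0.50 ± 0.15. That difference was tied to scaling, since it was -0.03 after median-of-ratios and -0.10 after quantile scaling. In combination the log2 fold change was -0.35 ± 0.15, and -0.26 without replicate 5. After median-of-ratios scaling it was -0.23 in combination and 0.15 in propionate. Prpf18, a factor of the second catalytic step, was among the steadiest genes, with medians of 24.5 TPM in propionate, 24.1 TPM in butyrate, 24.3 TPM in combination and 25.4 TPM in control.

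All 10 tested SR protein genes were below control in propionate (79.3% of all genes) and in butyrate (78.8%), and 9 of 10 in combination (65.9%). Median log2 fold changes were -0.60, -0.66 and -0.35 in propionate, butyrate and combination, and -0.23, -0.20 and -0.23 after median-of-ratios scaling. Srsf2, also called SC35 and a marker of nuclear speckles, had 52.2, 74.4 and 148 TPM as lowest, median and highest in propionate, 60.3, 69.3 and 129 TPM in butyrate, 68.3, 109 and 147 TPM in combination, and 87.8, 136 and 173 TPM in control. Ranges overlapped, though 4 of 6 propionate and 4 of 6 butyrate libraries lay below the lowest control library. Its log2 fold change was -0.66 ± 0.27 in propionate, -0.75 ± 0.27 in butyrate and -0.39 ± 0.27 in combination. Srsf3, an SR protein that also aids mRNA export, was at -0.78 ± 0.34, -0.89 ± 0.34 and -0.31 ± 0.34 in the same order, and Srsf1, the founding member of the family, at -0.68 ± 0.38, -0.76 ± 0.38 and -0.53 ± 0.38. Srsf5 was nearly level, with medians of 208 TPM in propionate, 202 TPM in butyrate, 222 TPM in combination and 213 TPM in control, and it was 1 of the 3 members higher in butyrate after median-of-ratios scaling, at 0.40.

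The 20 hnRNP genes were all below control in propionate (79.3% of all genes), with a median of -0.60, and in butyrate (78.8%), with a median of -0.77. In butyrate 13 were lower at an unadjusted p under 0.05 (35.1% of all genes). In combination 19 of 20 were below control (65.9%) and the median was -0.28. After median-of-ratios scaling the medians were -0.23, -0.31 and -0.16, and in butyrate 8 were lower (14.1%) and 1 higher (9.79%). Hnrnpa1, a splicing repressor that also shuttles mRNA to the cytoplasm, had 77.8, 110 and 453 TPM as lowest, median and highest in propionate, 71.8, 127 and 246 TPM in butyrate, 119, 197 and 356 TPM in combination, and 103, 309 and 519 TPM in control. The median in control was well above the others but every range overlapped. The log2 fold changes of -0.89 ± 0.47 in propionate, -1.11 ± 0.47 in butyrate and -0.53 ± 0.47 in combination carried wide errors. Hnrnpa1 has many processed pseudogenes, and reads shared with them leave its level uncertain.

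Hnrnpa2b1, its abundant relative, varied less, with medians of 455 TPM in propionate, 456 TPM in butyrate, 529 TPM in combination and 614 TPM in control. Its butyrate value of -0.42 ± 0.20 became 0.06 under median-of-ratios scaling. Hnrnpab, an RNA-binding protein of nucleus and cytoplasm, was at -0.99 ± 0.36 in butyrate, with medians of 93.6 TPM in propionate, 96.7 TPM in butyrate, 155 TPM in combination and 215 TPM in control. Hnrnph1, which binds runs of G, was at -0.60 ± 0.30 in propionate and -0.48 ± 0.30 in combination, with medians of 137 TPM in propionate, 141 TPM in butyrate, 151 TPM in combination and 219 TPM in control.

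The acids were also set against each other and against their mixture. In combination against butyrate, 66 members were above 0 and the median was 0.41, against 0.30 over all genes, of which 18.4% were below 0. None was called (0.0% of all genes, smallest adjusted p 0.317). At an unadjusted p under 0.05, 6 were higher, 8.45% of members against 14.6% of all genes, and 0 lower (background 0.93%). Under median-of-ratios scaling the member median was 0.07, against 0.02 over all genes. In TPM, Snrnp25, at 0.59 ± 0.13, and Snrpb, at 0.43 ± 0.17, were higher in combination in 36 of 36 library pairs (no overlap in that direction for 0.686% of all genes). Sf3a2, at 0.56 ± 0.20, was higher in 34 of 36. Without combination replicate 5, Snrnp25 was at 0.47 and Sf3a2 at 0.45. After median-of-ratios scaling, Snrpb against control was at -0.05 in combination and -0.13 in butyrate. On that scale Snrnp25 was at 0.22 and -0.04, and Sf3a2 at -0.17 and -0.40, in the same order.

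In combination against propionate the median was 0.22, against 0.19 over all genes, and it was -0.02 under median-of-ratios scaling. Fold changes were above 0 for 64 members, against 23.1% of all genes below 0. No member was called (0.0% of all genes), and 0 were higher or lower at an unadjusted p under 0.05 (background 8.43% and 0.429%). In butyrate against propionate the median was -0.17 (0.13 with weights per library), against -0.09 over all genes, with 60 members below 0 (background 70.3%) and 0 called (0.0% of all genes). Of these, Snrnp25, at -0.34 ± 0.13, and Sf3a2, at -0.43 ± 0.20, were lower at an unadjusted p under 0.05, 2.82% of members against 0.541% of all genes, and 0 members were higher (0.165%). Butyrate was higher than propionate in 3 of 36 pairs for Snrnp25 and in 10 of 36 for Sf3a2. The dose of each acid is not given, so the acids may differ in amount as well as in chain length.

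The interaction takes the butyrate difference seen with propionate (combination against propionate) and subtracts the one seen without it (butyrate against control). Its member median was 0.83, against 0.62 over all genes, with 2 members below 0 (background 16.3%). None was called (0.0% of all genes, smallest adjusted p 0.128). At an unadjusted p under 0.05, 42 were higher, 59.2% of members against 34.8% of all genes, and 0 lower (0.95%). In TPM, Sf3a2 was at 0.98 ± 0.29, Snrpc at 0.80 ± 0.25 and Snrnp25 at 0.73 ± 0.19. After median-of-ratios scaling, Sf3a2 against control was at -0.05 in propionate, -0.40 in butyrate and -0.17 in combination. In the same order Snrpc was at -0.02, -0.18 and -0.12, and Snrnp25 at 0.22, -0.04 and 0.22. The sign of the Snrnp25 interaction turned under quantile scaling. Under median-of-ratios scaling the member median was 0.13, with 11 higher and 4 lower (Hnrnpdl, Prpf18, Snrnp27 and Srsf5; background 9.35% and 9.08%). It was 0.20 under quantile scaling, and 0.26 with muscle and mesothelium levels as covariates, against 0.22 over all genes.

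Splicing genes outside the name rule also lay mostly below control, as did 79.3% of all genes in propionate, 78.8% in butyrate and 65.9% in combination. Medians of these lists are in TPM, to be read beside the all-gene medians given above. They were not computed under other scalings. In each count that follows, the share of all genes lower at an unadjusted p under 0.05 was 9.13% in propionate, 35.1% in butyrate and 4.1% in combination. Of 55 other spliceosome genes, 38 were lower in butyrate at an unadjusted p under 0.05 (median -0.63), 5 in propionate (Ddx23, Ddx39b, Lsm2, Luc7l and Ppil1) and 1 in combination (Ddx23), and none passed after adjustment. Lsm2, of the Lsm ring on U6, was at -0.74 ± 0.27 in propionate, -0.99 ± 0.27 in butyrate and -0.49 ± 0.27 in combination, and Ddx23, the helicase that releases U1 from the 5′ splice site, at -0.42 ± 0.19, -0.67 ± 0.19 and -0.41 ± 0.19. Of 21 genes of snRNP assembly and the exon junction complex, 18 were lower in butyrate at that threshold (median -0.60), 4 in propionate (Eif4a3, Gemin5, Gemin8 and Wdr77) and 0 in combination. Smn1, which loads Sm rings onto small nuclear RNAs, was at -0.82 ± 0.25 in butyrate, and Gemin5, which recognises those RNAs, at -0.82 ± 0.24.

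Of 43 other splicing regulators, 19 were lower and 2 higher (Khdrbs3 and Mbnl1; 1.19% of all genes higher) in butyrate at an unadjusted p under 0.05 (median -0.50). In propionate 5 were lower (Elavl1, Ptbp1, Raly, Sfpq and Tra2a), and in combination Rbfox2 was lower and Mbnl1 higher. Elavl1, the HuR protein that stabilises many mRNAs, was at -0.63 ± 0.27 in propionate and -0.93 ± 0.27 in butyrate. In combination, Rbfox2 was at -0.63 ± 0.28 and Mbnl1, which directs splicing in maturing muscle, at 0.46 ± 0.20. Beside these, cell cycle genes had a median of -1.42 in propionate, -1.62 in butyrate and -1.02 in combination, mesothelium genes -1.24, -1.56 and -1.32, and skeletal muscle genes 0.32, 0.52 and -1.50. All 16 cell cycle genes were below control in each comparison, while muscle genes were above control in propionate for 17 of 18, in butyrate for 18 of 18 and in combination for 0 of 18. The combination value turned on replicate 5: without it the muscle median was 0.28 and 16 of 18 genes were above control. Leaving out 1 library put the propionate muscle median between 0.06 (control replicate 2) and 0.64 (propionate replicate 3), and without control replicate 2 the butyrate one was 0.25. Without control replicate 3 the mesothelium median in propionate was -1.89. The part of the cell cycle genes in the splicing values was not tested.

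Many splicing factor genes make several transcripts themselves, some through cassette exons that carry early stop codons. The share of a gene's TPM in its leading transcript could be tested for 54 members among 6287 genes. None was called in propionate, butyrate or combination against control (0.0% of all genes each, with smallest member adjusted p of 0.750, 0.434 and 0.834). At an unadjusted p under 0.05 there were 4 members in propionate (Hnrnpm, Hnrnpr, Prpf3 and Srsf9), 5 in butyrate (Hnrnpf, Hnrnph2, Hnrnpr, Snrpg and Srsf1) and 2 in combination (Hnrnpr and Srsf7), against 6.33, 9.77 and 5.47% of all genes. Hnrnpr, an RNA-binding protein of the hnRNP family, had its leading transcript at 53.4 ± 6.53% in propionate, 53.3 ± 7.87% in butyrate, 53.2 ± 5.43% in combination and 42.8 ± 4.97% in control (SD, n = 6 each). Srsf1 was at 30.8 ± 4.06% in butyrate and 41.1 ± 8.65% in control, and Hnrnph2 at 57.3 ± 2.27% in butyrate and 68.5 ± 8.86% in control. Transcript shares rest on the authors' assembly, and shared exons make them less certain than gene sums.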

How the data were processed

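RNA was measured in 24 samples, 6 per group. TRIzol extraction and stranded libraries from polyadenylated RNA are stated per the labels' protocols. The submitters' processing notes name fastp, HISAT2, StringTie and the build mm39. The sources used here give no versions, settings, annotation or use of strand in quantification. The authors deposited 1 table of TPM with 149132 transcript rows that carry gene names only. TPM keeps no read depth, so depth is unknown and no counting error could be given. Each column has a fixed sum, so abundant transcripts lower the rest. Antisense partners, pseudogenes and close paralogs could share reads.

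TPM was summed by gene name, 1001 unnamed rows left out, and log2(TPM + 1) fitted with limma 3.58.1 in R 4.3.3 (trend and robust settings, all 24 libraries, 7 comparisons). P-values are two-sided with Benjamini-Hochberg adjustment over 15163 genes at 0.05, and log2 fold changes are on the log2(TPM + 1) scale with SE. Leading-transcript shares were fitted by limma after an arcsine square root transform. Alternatives changed the pseudocount, filter, scaling, model, replicate block, covariates and libraries. Counts of pairs compare each of 6 libraries of a group with each of 6 of the other. Genes were named by a rule: per comparison with control the 2 members of smallest p in each name family and the 2 furthest to the other side of the all-gene median, 10 members known for a role, the 5 highest and 3 lowest by level, and the 3 of smallest p in other lists and comparisons (4 for transcript shares). Hnrnpdl, Hnrnph3, Prpf18, Snrnp35, Snrpg and Srsf11 were chosen after their values were seen. The members and lists were chosen with earlier results of these data known. The fit was run on simulated data with independent noise per gene and planted differences larger than those of the members. That run cannot speak to shifts shared by many genes. Values of 1 member are not reported here.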

Additional observations from a re-analysis of the deposited data

Results flagged for a closer look

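Of 192 groups of 6 libraries examined for named genes, 8 held 1 library far from the other 5, and chance gives about 1 in 20 groups. Combination replicate 5 accounted for 6 of them. In it Snrnp27 was at 64.84 TPM (the others 88.0 to 98.35 TPM), Sf3b1 at 121.2 TPM (30.63 to 48.07 TPM) and Snrnp25 at 27.13 TPM (14.14 to 17.36 TPM). Prpf3, of the U4/U6 particle, was at 18.37 TPM there (7.91 to 11.77 TPM), Hnrnph2 at 61.99 TPM (35.42 to 45.3 TPM) and Prpf39 at 23.67 TPM (7.27 to 10.34 TPM). Muscle genes summed to 70.84 TPM in this library, and Ckm, the muscle creatine kinase, was at 0.78 TPM. Butyrate replicate 2 held Snrpd2 at 49.68 TPM (31.55 to 37.76 TPM) and Prpf3 at 13.79 TPM (6.47 to 8.81 TPM). What set these libraries apart was not tested.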

How the results depend on the processing

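Depth is unknown, and the spread between the libraries of a group limits what could be called. Most alternatives were labelled as keeping counts and medians in place. A median was labelled as moved only at a shift of at least 0.4287, the pooled SD of the member score within groups. The propionate and combination medians against control are smaller than that in size, so their complete loss would not be labelled. Their values under median-of-ratios scaling and with covariates, and the butyrate value with covariates, stand in the results above. With weights per library 64 members were called in propionate, 64 in butyrate, 45 in combination, 31 in combination against propionate, 3 in combination against butyrate and 65 in the interaction (background 72.4%), and the propionate median was -0.85; background shares stand in the results above. A replicate block by library number called 61 members in butyrate (52.1%) and 51 in the interaction (35.8%), and a block by title number called 0 in every comparison. Same-numbered samples correlated in their deviations at a median of -0.073 by title number (-0.865 to 0.737, 16 of 36 over 0.1) and 0.239 by library number (-0.395 to 0.699, 18 of 27 over 0.1), against -0.059 for different library numbers (74 of 189). The library number is thus a hint of pairing, but not every pair was over 0.1 and no label says what it marks. Leaving out 1 library gave 0 to 43 called in butyrate (43 without control replicate 3) and in the interaction (43 without propionate replicate 3, background 37.1%), and 0 in the other comparisons. Member medians then ran from -0.63 to -0.34 in propionate, -0.70 to -0.51 in butyrate, -0.37 to -0.14 in combination, 0.11 to 0.40 in combination against propionate, 0.28 to 0.48 in combination against butyrate, -0.27 to 0.02 in butyrate against propionate and 0.72 to 1.00 in the interaction. The butyrate median was -0.13 with median-of-ratios and -0.13 with quantile scaling, and the interaction median 0.20 with quantile scaling and 0.26 with covariates. Signs turned for Snrpb in propionate (0.0663, median of ratios) and combination (0.0152, covariates), Snrnp25 in butyrate (0.0323) and the interaction (-0.0072, both quantile), Hnrnpa2b1 in butyrate (0.0569, median of ratios), and Sf3b1 in combination (0.0428 median of ratios, 0.086 quantile, 0.03, 0.0468 and 0.0045 without combination replicate 1, combination replicate 6 or control replicate 5). The causes were not tested.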
